A study of Mus musculus with 18 samples.

Results

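The genes examined were 9 that encode subunits of the Arp2/3 complex, *Actr2*, *Actr3*, *Arpc1a*, *Arpc1b*, *Arpc2*, *Arpc3*, *Arpc4*, *Arpc5* and *Arpc5l*. They were chosen by name, are called subunits below, and all 9 were among the 15329 genes of the table. *Actr3b*, a relative of *Actr3* treated further on, was not among these 9. The Arp2/3 complex binds to the side of an existing actin filament and starts a new filament there as a branch. *Actr2* and *Actr3* encode the actin-related proteins Arp2 and Arp3, which stand in for the first actin subunits of the branch, and the *Arpc* genes encode the scaffold that holds them on the mother filament. *Arpc1* and *Arpc5* each exist as a pair of alternative isoforms, and a complex carries one of each. Branched actin made in this way fills dendritic spines, the postsynaptic protrusions of excitatory neurons, and the complex is kept inactive until a nucleation promoting factor of the WASP and WAVE families binds it.

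Hippocampal RNA was sequenced from 18 C57BL/6J mice of 8 to 10 weeks, with 1 library per mouse. WT and *Ccny* KO mice were taken untrained (Basal), after original learning of the Morris water maze (OL) or after original followed by reversal learning (RL), which gave 3 mice in each of the groups WT_Basal, WT_OL, WT_RL, KO_Basal, KO_OL and KO_RL. *Ccny* encodes cyclin Y, and the allele of the KO mice is not given in the sources used here. The comparisons below ask whether training or the genotype moved the subunit mRNAs.

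Each library held 29248557 to 37915576 reads on the genes of the table. The Basal libraries held 29248557 to 31509208 and the trained libraries 31830344 to 37915576, so depth and training cannot be told apart. *Ccny* itself lay between 74.0 and 95.8 CPM (read counts scaled to the library total) in the 9 KO mice and between 107 and 158 CPM in the 9 WT mice, so the groups did not overlap and the KO mice kept part of the transcript. Markers of dentate granule and CA1 pyramidal neurons were detected in every library, with summed levels of 147 to 385 and 416 to 725 CPM. Some libraries stood apart from the others of their group. Summed markers of hypothalamic neurons reached 101 CPM in KO_Basal replicate 1 and at most 11.2 CPM elsewhere, and those of the choroid plexus ran from 44.1 to 8378 CPM. The 6 Basal libraries also differed from the 12 trained libraries in base composition. The slope of a library's deviation from the gene means on transcript GC content lay between -0.160 and -0.101 log2 units per 10% GC in the Basal libraries and between -0.0053 and 0.182 in the trained libraries, with the highest slope in WT_OL replicate 2. No Basal library overlapped any trained one, so base composition and training cannot be told apart, and the calls after training are given with and without this slope. In whole tissue, fewer cells of a type and less RNA per cell also cannot be told apart.

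The stretch upstream of the RefSeq start site is shown for 3 members that passed the test of OL against Basal over both genotypes (build GRCm38.p6): *Arpc3*, whose call held under every alternative tried, and *Actr2* and *Arpc1a*, which moved in opposite directions. Capitals mark a GC box (GGGCGG) or a CCAAT box (CCAAT) on either strand. The *Arpc3* stretch is chr5:122391628-122391877 on the plus strand, the *Actr2* stretch chr11:20112952-20113201 on the minus strand, and the *Arpc1a* stretch chr5:145083619-145083829 on the plus strand.
Arpc3: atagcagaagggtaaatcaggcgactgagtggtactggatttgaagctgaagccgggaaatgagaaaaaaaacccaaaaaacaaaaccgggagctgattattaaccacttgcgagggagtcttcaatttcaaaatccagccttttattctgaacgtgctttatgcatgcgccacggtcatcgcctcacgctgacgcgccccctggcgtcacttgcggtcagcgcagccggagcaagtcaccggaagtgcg
Actr2: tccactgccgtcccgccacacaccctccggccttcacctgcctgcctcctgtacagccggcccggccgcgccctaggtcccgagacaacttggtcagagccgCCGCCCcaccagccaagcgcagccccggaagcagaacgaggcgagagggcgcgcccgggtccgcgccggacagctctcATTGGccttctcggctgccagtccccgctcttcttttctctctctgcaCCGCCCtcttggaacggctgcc
Arpc1a: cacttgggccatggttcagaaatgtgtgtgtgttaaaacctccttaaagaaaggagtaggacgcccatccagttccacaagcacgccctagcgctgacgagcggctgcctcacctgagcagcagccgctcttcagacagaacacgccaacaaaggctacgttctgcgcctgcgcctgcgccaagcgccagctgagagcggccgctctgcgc
None of 6 motifs was found in the 250 bases upstream of *Arpc3*, whereas the *Actr2* window held 2 GC boxes and 1 CCAAT box. The other 4 motifs searched were the TATA box (TATAAA), the cyclic AMP response element (TGACGTCA), the E-box (CACGTG) and the CArG box bound by serum response factor, which regulates many actin genes. Of 32851 RefSeq upstream windows of this length, 32.7% held a GC box, 33.8% a CCAAT box, 12.4% a TATA box, 6.02% an E-box, 1.55% a cyclic AMP response element and 1.47% a CArG box. Among the 8 members with a RefSeq entry (*Arpc5l* had none), *Arpc4* was the one with a CArG box, *Arpc5* the one with an E-box, and *Arpc1b* had the most GC boxes, with 7. A motif match describes these letters and is no evidence of binding.

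All 9 subunits were expressed in every library, at very different levels. Per kilobase of the principal transcript, *Arpc3* was the highest at 204 ± 29.6 CPM (SD, n = 18), followed by *Arpc2* at 187 ± 15.4 and *Actr2* at 132 ± 16.7. *Actr3* (117 ± 7.16) and *Arpc1a* (116 ± 8.49) came next. The ranges of 1 SD overlapped for *Arpc3* and *Arpc2*, and for *Actr2*, *Actr3* and *Arpc1a*. Whether these genes differed within a library was not tested. *Arpc5* reached 93.0 ± 7.14. *Arpc5l* (59.2 ± 5.65) and *Arpc4* (47.8 ± 4.85) were lower, and *Arpc1b* stood far below the rest at 6.85 ± 1.37. *Arpc1a* was thus the main *Arpc1* isoform of this tissue by mRNA, and *Arpc5* was above *Arpc5l*. The order depends on the transcript length used, since with the length of all annotated exons *Arpc2* (133 CPM per kilobase) came before *Actr2* (91.9), *Arpc5* (78.2), *Arpc1a* (73.7) and *Arpc3* (66.4).

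In GRCm38 the members lie on chromosomes 1 (*Actr3*, *Arpc2* and *Arpc5*), 2 (*Arpc5l*), 5 (*Arpc1a*, *Arpc1b* and *Arpc3*), 6 (*Arpc4*) and 11 (*Actr2*). *Arpc1a* (chr5:145083830-145108761) and *Arpc1b* (chr5:145114215-145130705) are neighbours on the plus strand, *Arpc3* spans chr5:122391878-122414184 and *Actr2* chr11:20062304-20112913. Some members share sequence or position with other annotated features, and whether their reads were shared was not tested. Of the 50-base stretches of *Actr3*, 49.8% also occur elsewhere in annotated transcripts, mainly in the processed pseudogene *Gm8822*, and the share was 12.8% for *Arpc1b* and 10.5% for *Arpc4*. *Arpc4* shares exons with *Ttll3* on the same strand and *Arpc5l* with *Wdr38*, while *Arpc1a*, *Arpc1b* and *Arpc5l* overlap *Kpna7*, *Pdap1* and the ribosomal protein gene *Rpl35* on the other strand, and how the counting treated strand is not given in the sources used here. The values of *Actr3* are therefore the least certain as to their source gene.

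**Figure D1:**
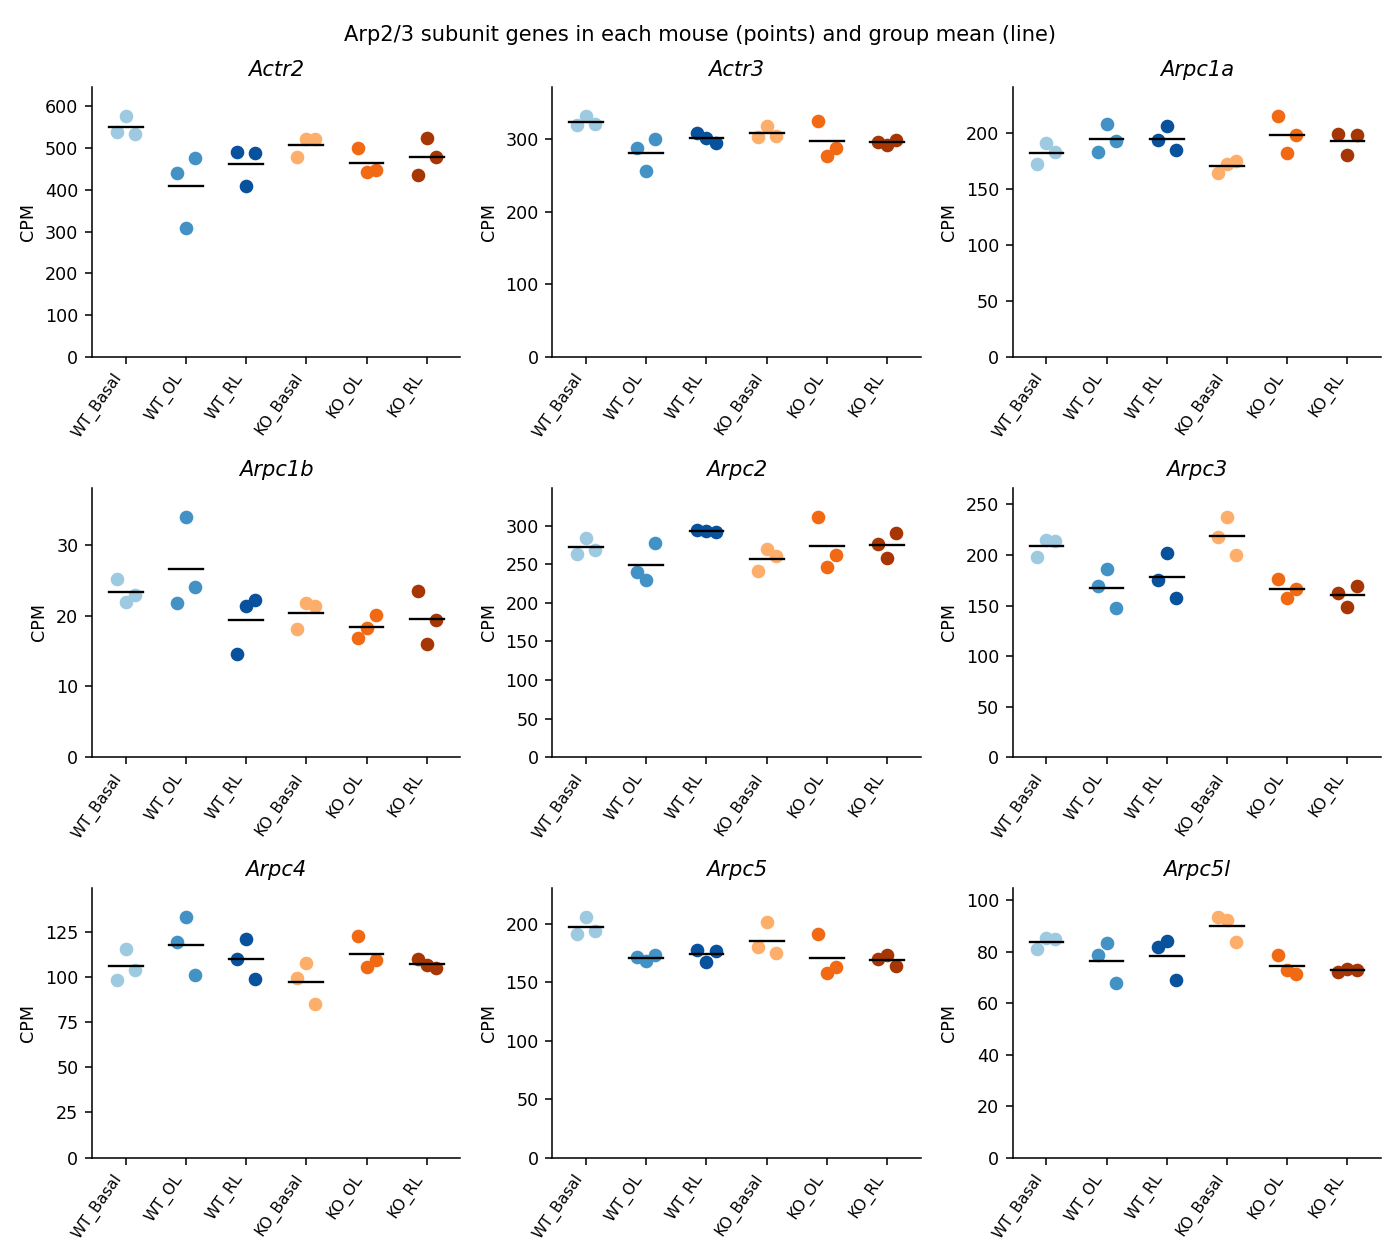
Levels of the 9 subunit genes in CPM (y axis, from 0) in each of the 18 mice, by group (x axis). Points are mice and lines are means of 3 mice. Arpc3 and Arpc5l lay lower in the trained KO groups than in KO_Basal without overlap. Of all genes, 48.8% were separated from KO_Basal in KO_OL and 45.3% in KO_RL, in either direction. WT_OL replicate 2 was the lowest library for Actr2 (308 CPM) and the highest for Arpc1b (34.0 CPM).

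Original learning was first compared with the untrained state over both genotypes. Of the 9 subunits, 4 fell (*Arpc3*, *Actr2*, *Arpc5l* and *Arpc5*) and 1 rose (*Arpc1a*) at an adjusted p under 0.05 in limma, where 28.6% of all genes were called. Summed over the 9 genes, the level was 1887 to 2026 CPM in WT_Basal and 1607 to 1758 CPM in WT_OL, and 1796 to 1944 CPM in KO_Basal and 1662 to 1939 CPM in KO_OL. The median difference of the subunits was -0.13 on the log2 scale, and that of all genes was -0.0028. The changes were small, and the largest among them, that of *Arpc3*, came to 0.782 times the untrained level. After the GC slope was removed, *Arpc3* was the one subunit still called, where 16.4% of all genes were called.

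*Arpc3*, a small subunit that contacts Arp3, was the member with the largest difference from Basal over both genotypes. It was measured at 198, 215 and 214 CPM in WT_Basal and at 218, 238 and 200.5 CPM in KO_Basal. After original learning it was at 170, 186 and 147 CPM in WT_OL and at 176, 158 and 166 CPM in KO_OL. No trained mouse of these groups reached the lowest untrained mouse, in either genotype. Of all genes, 28.3% were separated without overlap in WT mice and 48.8% in KO mice, in either direction. The difference over both genotypes was -0.35 ± 0.071 (SE) on the log2 scale, with an adjusted p of 0.0013 from limma. It was -0.38 with the GC slope removed, where the adjusted p was 0.0017. It also passed in each of the 12 fits that left out 1 library of these groups, with values from -0.39 to -0.31. Within WT mice the difference was -0.32 ± 0.10 and missed the threshold (adjusted p = 0.053 from limma), whereas KO mice passed it at -0.39 ± 0.10 (limma, adjusted p = 0.011). The KO call ended without KO_Basal replicate 2, at an adjusted p of 0.057.

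*Arpc5l*, the alternative isoform of the *Arpc5* subunit, fell by 0.20 ± 0.059 on the log2 scale over both genotypes (adjusted p = 0.018 from limma). It was at 93.5, 92.2 and 83.8 CPM in KO_Basal and at 78.6, 72.9 and 71.4 CPM in KO_OL. In WT mice it was at 81.0, 85.2 and 85.0 CPM untrained and at 78.5, 83.4 and 67.7 CPM after learning. The KO groups did not overlap, as for 48.8% of all genes. The WT groups did overlap, where 28.3% of all genes were separated. KO mice alone gave a difference of -0.27 ± 0.084 (limma, adjusted p = 0.029). That call was lost without KO_Basal replicate 1 or 2 or KO_OL replicate 2 or 3, at differences of -0.26 to -0.24 and adjusted p-values of 0.077 to 0.10. With the GC slope removed, the difference over both genotypes was -0.093, with an adjusted p of 0.39.

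Its partner isoform *Arpc5* fell by 0.16 ± 0.053 over both genotypes (adjusted p = 0.028 from limma). WT_Basal mice had 191, 206 and 194 CPM, and WT_OL mice had 171, 168 and 173 CPM. In KO mice the 3 values were 181, 202 and 175 CPM untrained and 192, 158 and 163 CPM after learning. The groups were separated in WT mice, as for 28.3% of all genes, and overlapped in KO mice. Neither genotype passed the test on its own. Without the GC slope the difference was -0.10, with an adjusted p of 0.20. The call was also lost without WT_Basal replicate 2, KO_Basal replicate 2 or KO_OL replicate 2 or 3, at -0.15 to -0.13 and adjusted p-values of 0.068 to 0.081.

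*Actr2* passed the test within WT mice (-0.45 ± 0.13, adjusted p = 0.037 from limma), where it was the one subunit called against 9.5% of all genes. WT_Basal mice had 538, 576 and 533 CPM and WT_OL mice 441, 308 and 475 CPM. WT_OL replicate 2 was far below the other libraries, and without it the difference was -0.26 with an adjusted p of 0.13. The call was also lost without any 1 of the WT_Basal mice, at differences of -0.47 to -0.42 and adjusted p-values of 0.090 to 0.11, and in a fit of the compared groups alone (adjusted p = 0.19). Without WT_OL replicate 2 *Arpc3* was called in its place, at -0.40 and an adjusted p of 0.031. KO mice had 479, 522 and 522 CPM untrained and 501, 444 and 447 CPM after learning, which overlapped. *Actr2* has the lowest GC content of the 9 transcripts, 40.3%, and its difference over both genotypes went from -0.29 (adjusted p = 0.024 from limma) to -0.040 with the slope removed, where the adjusted p was 0.77. That call also ended without WT_Basal replicate 2, KO_Basal replicate 2 or KO_OL replicate 2 or 3, at adjusted p-values of 0.052 to 0.055. With the slope removed, no subunit was called within WT mice, against 2.25% of all genes. *Actr3*, the other actin-related protein of the core, was at 320, 332 and 321 CPM in WT_Basal and at 288, 256 and 300 CPM in WT_OL, and its difference of -0.21 was not called (adjusted p = 0.075 from limma).

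*Arpc1a*, the WD-repeat subunit of the main isoform, was the one member called higher. It was at 165, 173 and 175 CPM in KO_Basal and at 215, 183 and 198 CPM in KO_OL, with no overlap, as for 48.8% of all genes. WT mice had 172, 191 and 183 CPM untrained and 183, 209 and 193 CPM after learning, with overlap. The difference was 0.21 ± 0.076 within KO mice (adjusted p = 0.049 from limma) and 0.16 ± 0.053 over both genotypes (adjusted p = 0.037). Both lay close to the threshold, and both lost the call with the GC slope removed, at 0.17 and 0.11. The call within KO mice was lost in each fit without 1 library except that without KO_OL replicate 2 (0.16 to 0.23, adjusted p = 0.074 to 0.21). The call over both genotypes was lost without WT_Basal replicate 1 or 3, WT_OL replicate 2, KO_Basal replicate 1 or 2 or KO_OL replicate 1 or 3 (0.13 to 0.16, adjusted p = 0.058 to 0.10). Within KO mice 3 subunits were thus called, 2 lower and 1 higher, against 23.5% of all genes, and with the slope removed the call of *Arpc3* was the one left, against 15.3% of all genes. *Actr3*, *Arpc1b*, *Arpc2* and *Arpc4* were called in no comparison of OL with Basal. *Arpc2*, the subunit that carries much of the contact with the mother filament, ranged from 229 to 312 CPM over the 18 libraries, and *Arpc4*, its partner in that core, from 84.9 to 133 CPM. *Arpc4* was higher after OL over both genotypes, by 0.18 ± 0.076, and was not called (adjusted p = 0.091 from limma).

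**Figure D2:**
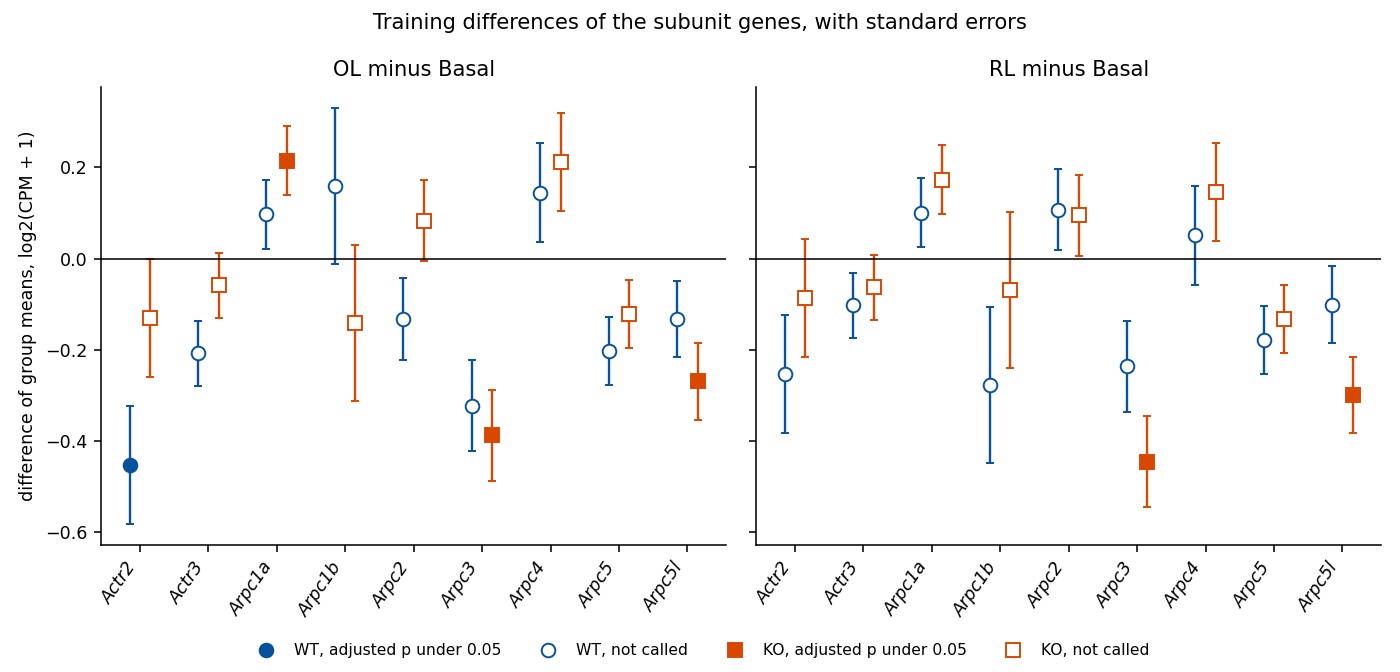
Difference of OL (left) and RL (right) from Basal on the log2(CPM + 1) scale (y axis) for each subunit (x axis), in WT (circles) and KO mice (squares), with standard errors from limma. Filled symbols passed an adjusted p under 0.05. Arpc3 had the lowest value in KO mice in both panels, -0.39 and -0.45.

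**Figure D3:**
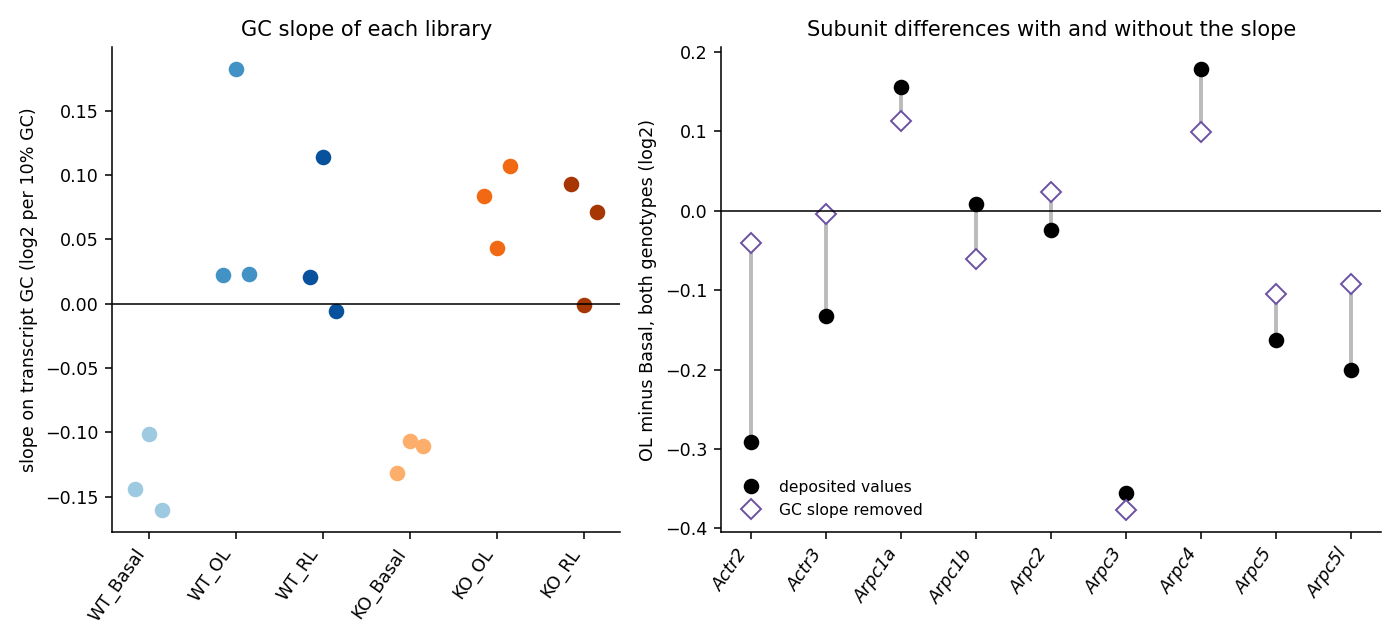
Left, slope of each library's deviation from the gene means on transcript GC content (log2 units per 10% GC), by group, with 1 point per mouse. Right, OL minus Basal over both genotypes for each subunit on the log2 scale, from the deposited values (circles) and with the slope removed (diamonds). Arpc3 went from -0.35 to -0.38, and Actr2 from -0.29 to -0.040.

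Reversal learning was then compared with the untrained state and with original learning. These comparisons share the Basal or the OL mice with those above and are not independent of them. Over both genotypes, RL mice had lower *Arpc3* (-0.34 ± 0.071, adjusted p = 0.0015), *Arpc5l* (-0.20 ± 0.059, adjusted p = 0.015) and *Arpc5* (-0.16 ± 0.053, adjusted p = 0.029) than Basal mice in limma, so 3 of 9 subunits were called against 35.4% of all genes. The call of *Arpc5* was lost without WT_Basal replicate 2, WT_RL replicate 2, KO_Basal replicate 2 or KO_RL replicate 3, at adjusted p-values of 0.061 to 0.085. With the GC slope removed, *Arpc3* alone was called, at -0.37, against 29.1% of all genes. In KO_RL the 3 mice had 163, 149 and 169 CPM of *Arpc3* and 72.1, 73.4 and 72.7 CPM of *Arpc5l*. All lay below the KO_Basal mice. In KO_RL 4 subunits lay below KO_Basal without overlap and 1 above, where 45.3% of all genes were separated in either direction. Within KO mice *Arpc3* and *Arpc5l* were the 2 subunits called against 23.6% of all genes, at -0.45 ± 0.10 (adjusted p = 0.0048 from limma) and -0.30 ± 0.084 (adjusted p = 0.017 from limma). The call of *Arpc5l* was lost without KO_Basal replicate 1 or 2 or KO_RL replicate 3, at adjusted p-values of 0.051 to 0.075. With the slope removed *Arpc3* was left, against 17.8% of all genes. Within WT mice no subunit was called, against 15.7% of all genes, and 2 of 9 had an unadjusted p under 0.05, against 30.3% of all genes. WT_RL mice had 176, 202 and 157 CPM of *Arpc3*, which overlapped WT_Basal.

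Between RL and OL no subunit was called by limma. The share of all genes called was 0.261% in WT mice, 0.0196% in KO mice and 0.352% over both genotypes. At an unadjusted p under 0.05 there were 2 of 9 subunits in WT mice, against 16.4% of all genes, and none in KO mice (4.81%) or over both genotypes (11.1%). Without WT_OL replicate 3 *Arpc2* was called in WT mice (adjusted p = 0.030), where all libraries gave 0.24 with an adjusted p of 0.23. *Arpc3* differed by 0.014 ± 0.071 and *Arpc5l* by 0.0013 ± 0.059 on the log2 scale over both genotypes. *Arpc1b* had the largest value, -0.44 ± 0.17 within WT mice (adjusted p = 0.25), and the mice of these groups had 21.7, 34.0 and 24.0 CPM after OL and 14.5, 21.3 and 22.1 CPM after RL.

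KO and WT mice were compared at each training state. In limma no subunit was called between KO and WT mice when untrained (0.0196% of all genes called), after OL (0.0652%), after RL (0%) or over all states (0.0326%). At an unadjusted p under 0.05 there was 1 of 9 subunits after OL, against 18% of all genes, and 1 of 9 over all states, against 8.36%. There was none when untrained (4% of all genes) or after RL (4.93%). The subunit behind both unadjusted values was *Arpc1b*. It was at 16.8, 18.2 and 20.1 CPM in KO_OL, below the 3 WT_OL mice, where 16.5% of all genes were separated. Its difference there was -0.48 ± 0.17 (adjusted p = 0.19), or -0.30 without WT_OL replicate 2. The 3 oligodendrocyte markers followed with *Arpc1b* further on (*Mbp*, *Mog* and *Mag*) summed to 2639 to 3349 CPM in KO_OL and 3704 to 6088 CPM in WT_OL, and their part in this difference was not tested. *Arpc3* differed by -0.0029 ± 0.10 after OL, and over all states the 8 subunits other than *Arpc1b* differed by -0.073 (*Arpc4*) to 0.049 (*Actr2*). The difference between the genotypes in the response to training was tested too. It was called for no subunit and no gene (0% of all genes) in OL against Basal, RL against OL or RL against Basal, with 0 of 9 subunits at an unadjusted p under 0.05 in each, against 12.4%, 7.98% and 4.99% of all genes. So although *Arpc3* and *Arpc5l* were called within KO mice and not within WT mice, their responses were not shown to differ, with interactions of -0.064 ± 0.14 and -0.14 ± 0.12 for OL against Basal and -0.21 ± 0.14 and -0.20 ± 0.12 for RL against Basal.

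The balance between related genes was followed as a log2 ratio within each library, which is free of that library's scaling. For *Arpc1b* to *Arpc1a* and *Arpc5l* to *Arpc5*, none of 4 comparisons passed after adjustment over the 12 tests made (exact permutation test, two-sided). The lowest was *Arpc1b* to *Arpc1a* in RL against Basal, at -0.31 (exact p = 0.030, adjusted p = 0.12). *Actr3b* encodes a brain-enriched relative of Arp3, and its ratio to *Actr3* was higher after training. The mean log2 ratio was -1.42 ± 0.071 (SD, n = 3) in WT_Basal and -1.43 ± 0.094 in KO_Basal. It was -1.09 ± 0.21 in WT_OL and -1.21 ± 0.050 in KO_OL, and -1.28 ± 0.052 in WT_RL and -1.29 ± 0.016 in KO_RL. All 12 trained mice lay above the mice of their genotype in Basal. The difference from Basal was 0.27 for OL and 0.14 for RL, each with the smallest p that the 400 relabelings can give (exact p = 0.0050, adjusted p = 0.030). It was 0.14 (adjusted p = 0.22) and 0.012 (adjusted p = 0.93) by the same exact test with the GC slope removed. Leaving out 1 library leaves fewer relabelings. The call in OL against Basal was then lost without any 1 of the WT_Basal mice or KO_OL replicate 1 or 2 (0.25 to 0.29, adjusted p = 0.060 to 0.090 by the exact test). The call in RL against Basal was lost without any 1 of the WT_Basal or KO_RL mice or WT_RL replicate 1 or 2 (0.12 to 0.15, adjusted p = 0.060 to 0.12 by the exact test). The pseudogene matches of *Actr3* apply here as well. Neither gene passed the test alone in OL against Basal over both genotypes (*Actr3b* 0.14, adjusted p = 0.091, and *Actr3* -0.13, adjusted p = 0.056, limma).

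Genes related to the complex were examined as lists. Of 11 nucleation promoting factors, 4 rose and none fell in OL against Basal over both genotypes, with a median of 0.073, where 28.6% of all genes were called. They were *Wasf2* (0.32 ± 0.079) and *Wasf3* (0.24 ± 0.052), which encode WAVE proteins, *Wash1* (0.14 ± 0.051) of the endosomal WASH complex, and *Nckipsd* (0.32 ± 0.062), which binds the adaptor Nck. The adjusted p-values from limma were 0.0062, 0.0028, 0.044 and 0.0011. *Wasf3* alone was still called with the GC slope removed (0.21, adjusted p = 0.0091), against 16.4% of all genes. Of 10 inhibitors and debranching factors, 3 coronins rose and 1 gene fell, with a median of 0.10. The shares called in the lists lay on both sides of that of all genes. The coronins were *Coro1c* (0.25 ± 0.066), *Coro2b* (0.26 ± 0.084) and *Coro7* (0.23 ± 0.064). *Gmfb*, which encodes a glia maturation factor that takes branches apart, fell by 0.44 ± 0.078 (adjusted p = 0.00059 from limma). With the slope removed *Coro1c* was called (0.20, adjusted p = 0.044) and *Gmfb* was not (-0.15, adjusted p = 0.090). Of 9 other actin-related proteins, *Actr1a* of dynactin rose (0.19 ± 0.047) and *Actr6* of a chromatin remodelling complex fell by 0.47 ± 0.074, with a median of -0.0063 over the list, and neither was called with the slope removed. Between KO and WT over all states none of the 3 lists held a called gene by limma.

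Other cell types of the tissue were followed by their markers. Microglia are motile cells, and *Arpc1b* is known to be high in cells of this lineage, so all 9 subunits were correlated with the mean of 12 microglia markers over the 18 libraries. *Arpc3* and *Arpc5l* each followed it, with r = 0.80 (permutation p = 8e-05 and 0.0001, adjusted p = 0.00045 for both over 9 tests) and rho = 0.80 and 0.77 (adjusted p = 0.0014 for both). Their r was 0.70 and 0.77 after KO_Basal replicate 2 and KO_RL replicate 2, the libraries with the most extreme marker levels, were set aside, and 0.83 and 0.68 with group means removed. With group means removed *Arpc4* reached 0.75 and *Arpc1a* 0.58, and *Actr2* ran against the markers at -0.80. Among the other genes of the table, 3.56% and 3.55% had as high an r as *Arpc3* and *Arpc5l* without that removal. Without it no other subunit passed after adjustment, *Arpc1b* included (r = 0.47, permutation p = 0.046, adjusted p = 0.14). The permutations shuffled all 18 libraries regardless of group, so these p-values also take in differences between groups. The 12 markers, none at 0, summed to 680 to 744 CPM in KO_Basal and 570 to 607 CPM in KO_OL. In WT mice they summed to 617 to 682 CPM untrained and 563 to 744 CPM after OL. In KO mice 4 of the 12 fell and none rose after OL, where 23.5% of all genes were called, and in WT mice 2 rose and 1 fell, where 9.5% were called. Over both genotypes 4 fell and 2 rose, where 28.6% of all genes were called, so the 12 markers did not move in 1 direction. The 7 choroid plexus markers all rose after OL in KO mice, from 48.5 to 665 CPM summed in KO_Basal to 2392 to 4624 CPM in KO_OL. In WT mice these 7 summed to 854 to 4333 CPM untrained and 1868 to 3283 CPM after OL, and none was called. The part of these cells in the differences of *Arpc3* and *Arpc5l* was not tested.

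**Figure D4:**
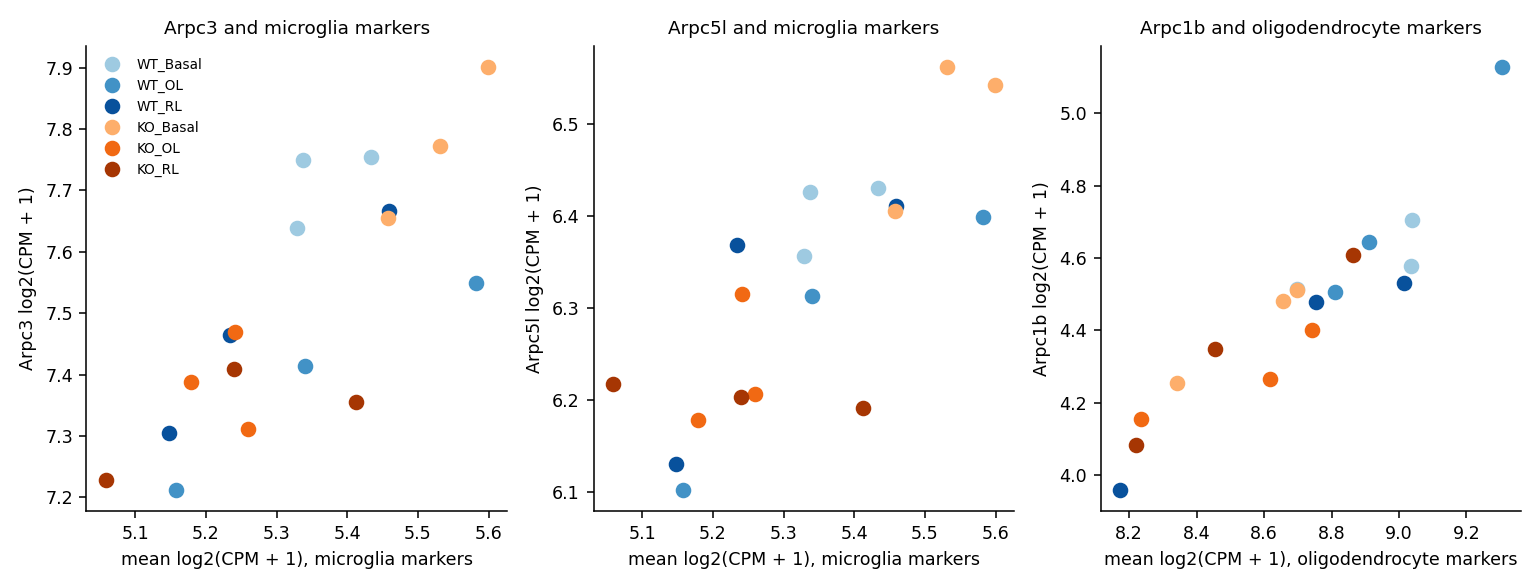
Level of Arpc3 and Arpc5l against the mean of 12 microglia markers, and of Arpc1b against the mean of 3 oligodendrocyte markers, all as log2(CPM + 1). Each point is a mouse, coloured by group, and r was 0.80, 0.80 and 0.93.

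The subunits did not vary as a single block across the 18 libraries. The closest pair was *Arpc3* and *Arpc5l* (r = 0.93), followed by *Actr2* and *Actr3* (r = 0.85) and *Actr3* and *Arpc5* (r = 0.79), while *Actr2* ran against *Arpc4* (r = -0.58). With group means removed these were 0.85, 0.72, 0.70 and -0.47, and the order changed. The closest pairs were then *Arpc3* and *Arpc4* (0.89, from -0.021), *Arpc4* and *Arpc5l* (0.89, from 0.081) and *Actr3* and *Arpc2* (0.87, from 0.62), and *Actr2* and *Arpc1b* were the most opposed (-0.69). The closest genes were sought among those with a mean CPM of at least 1, with the 9 subunits left out. The closest to each subunit were *Mef2a* and *Xk* for *Actr2* (r = 0.97 and 0.96), *Cdc40* and *Dlat* for *Actr3* (0.94 and 0.93), *Stx6* and *Mlf2* for *Arpc1a* (0.96 and 0.89), and *1110007C09Rik* and *Mog* for *Arpc1b* (0.94 and 0.93). They were *Nmt1* and *Fndc5* for *Arpc2* (0.91 and 0.87), *Dnajc8* and *Higd1a* for *Arpc3* (0.95 and 0.95), and *Asl* and *Pebp1* for *Arpc4* (0.89 and 0.89). *Neurod6* and *Sdcbp* were closest to *Arpc5* (0.89 and 0.88), and *Scg5* and *Ndufaf2* to *Arpc5l* (0.95 and 0.95). These are descriptions over libraries that differ in depth and base composition. *Mog* encodes a myelin protein of oligodendrocytes, and after it was seen *Arpc1b* was set against the mean of 3 oligodendrocyte markers (*Mbp*, *Mog* and *Mag*), so *Mog* counts in both and the value partly restates what prompted it. The correlation was r = 0.93 (rho = 0.93) over 18 libraries, 0.92 without WT_RL replicate 1 and WT_OL replicate 2 and 0.93 with group means removed. The 3 markers summed to 6088 CPM in WT_OL replicate 2, the library highest for *Arpc1b*, and to 2459 CPM in WT_RL replicate 1, the lowest.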

How the data were processed

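Hippocampal libraries of 18 mice were used, 1 per mouse, grouped by the labels. The authors mapped reads to mm10 with STAR 2.5.1, counted them on genes, and deposited log2 values of TMM-normalized CPM from edgeR 3.12.1 (R 3.3.0). The deposited log2 values were log2(CPM + 1). Back on the CPM scale, with this offset of 1 removed, 100% of them were whole multiples of 1 read, worth 0.0274 to 0.0333 CPM by library. The tolerance was 0.05 of a read for low counts and grew with the count, so the check says little for high counts. Fold changes are on the log2(CPM + 1) scale.

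All 15329 genes entered 1 limma 3.58.1 fit (R 4.3.3, lmFit with a mean per group, eBayes with trend, 12 residual degrees of freedom), for 16 comparisons, two-sided, with Benjamini-Hochberg adjustment over all genes. Simulated log2 values with planted changes were used to test this fit. Paralog ratios were tested by exact permutation within genotype or training state, and correlations with 100000 permutations in Python. The smooth GC trend of each library was removed as an alternative, for 99.31% of genes with GC content from GENCODE transcripts. Named were all 9 members, pathway genes past the test in OL against Basal, *Actr3b*, the 2 closest genes per member and *Ccny*. The members and lists were chosen with earlier results of these data known. A marker gene of the oligodendrocyte list is not reported here, and its list was used without it. The labels do not say that mice came from separate litters. Upstream sequences come from RefSeq (GRCm38.p6), with 8 of 9 members matched.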

Additional observations from a re-analysis of the deposited data

How the results depend on the processing

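All 9 subunits were measured by at least 522 reads per library, so the spread between 3 mice set the precision. The number of subunits called in WT_OL against WT_Basal was 1. It was 2 with CPM floored at 1 or with genes of a mean CPM of at least 1, 6 with library weights, 0 with GC correction, alone or with a replicate block, and 0 with the compared groups alone. In KO_OL against KO_Basal the 3 calls became 1 with GC correction, alone or with the block. In KO_RL against KO_Basal the 2 calls became 4 with library weights and 1 with GC correction, alone or with the block. Over both genotypes, the 5 calls in OL against Basal became 1 with GC correction, alone or with the block, and 3 with the compared groups alone, and the 3 in RL against Basal became 5 with library weights and 1 with GC correction, alone or with the block. Library weights gave 1 call in WT_RL against WT_OL, 2 in KO_OL against WT_OL, 1 in the genotype difference in OL against Basal and 1 in RL against OL over both genotypes, where the other settings on all 18 libraries called none. Leaving out 1 library at a time gave 0 to 2 calls in WT_OL against WT_Basal, 0 to 2 in KO_OL against KO_Basal, 1 to 2 in KO_RL against KO_Basal, 2 to 7 in OL against Basal, 2 to 4 in RL against Basal and 0 to 1 in WT_RL against WT_OL (1 without WT_OL replicate 3), and 0 in the other 10 comparisons. In OL against Basal the count was 2 without KO_Basal replicate 2 or KO_OL replicate 3, and 3 without WT_Basal replicate 2 or KO_OL replicate 2. The cause of these shifts was not tested. No paired design is given by the labels: of 45 pairs of same-numbered libraries, 12 had deviations correlated above 0.1 (median -0.023), and 5 of 18 libraries were closest to one of their own number. With a replicate block alone the calls in OL against Basal numbered 5 again, with *Arpc4* gained (adjusted p = 0.046) and *Arpc1a* lost (adjusted p = 0.051), and *Arpc1a* was also lost in KO_OL against KO_Basal (adjusted p = 0.065). The call of *Arpc3* over both genotypes held under all 11 alternatives, with values from -0.38 to -0.35.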
